A study of Mus musculus with 3 samples.

Results

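The genes described here encode the proteasome. They are the 36 genes of the 16977 in the deposited table whose symbol begins with Psma, Psmb, Psmc or Psmd followed by a digit, leaving out the interferon-induced subunits Psmb8, Psmb9 and Psmb10. Of the 36, 15 belong to the Psma and Psmb families of the core particle and 21 to the Psmc and Psmd families of the regulatory particle. The symbol rule takes in 5 genes that are not stable subunits of the proteasome of these cells. Psmb11 is the form of a catalytic subunit used in the thymus, Psmd5, Psmd9 and Psmd10 are assembly chaperones of the regulatory particle, and Psmc3ip encodes a recombination factor named after a protein it binds. The other 31, 14 of the core and 17 of the regulatory particle, are called structural subunits below.

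The proteasome is the protease that degrades proteins tagged with ubiquitin. Its core is a barrel of stacked rings, in which the alpha subunits form the gate and the beta subunits hold the active sites inside. The regulatory particle caps the barrel. Its base carries a ring of ATPases that unfold substrates, and its lid removes the ubiquitin chain. The subunits are made in matched amounts, and in mammals the transcription factor NRF1, the product of Nfe2l1, raises their genes together when proteasome activity runs short. Dividing neural stem cells rely on the proteasome to destroy cyclins and other regulators of the cell cycle.

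Total RNA depleted of ribosomal RNA came from cultured neural stem cells of C57BL/6J mouse embryos at E12.5, grown with EGF and FGF. All cells were infected with a lentivirus, which carried a control hairpin RNA (shControl, 1 library) or a hairpin against PHF2, a histone demethylase (shPHF2, 2 libraries described as biological replicates). The number of different hairpins was not given in the sources used here. The question is how transcript levels differ once Phf2 is knocked down. Values are normalised reads, that is, reads per gene after division by a scaling factor for each library, and 3 values in a row stand in the order shControl, shPHF2 replicate 1, shPHF2 replicate 2. A single control library has no replicate error. The p-values rest on the spread between the shPHF2 libraries and on that pooled over the genes tested, and include no spread of controls.

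The libraries held 26302177 to 37171026 reads in genes. Phf2 itself had 2593, 985 and 714 normalised reads (log2 fold change -1.63, SE 0.24; adjusted p = 0.0085 by limma). All 9 neural stem cell markers looked up were detected in every library, with sums of 331468, 345090 and 388747 normalised reads, and 1 of them, Sox2, rose (5893, 10114 and 8819; adjusted p = 0.048 by limma). Of the 9, 4 had a log2 fold change above 0 and 5 below it, the lowest being Pax6 (1392, 1046 and 691). The sums for microglia were 110.6, 238 and 228 (4 of 7 markers in the table, Aif1 and Tmem119 at 0 in shControl), most of it P2ry12 with 99.7, 204 and 213 (adjusted p = 0.085 by limma). Those for endothelium were 417, 829 and 521 (6 of 6, Cldn5 at 0 in both shPHF2 libraries), and Emcn among them rose (126.6, 494 and 345; adjusted p = 0.018 by limma). Of the 3 endothelial markers tested, 2 had a log2 fold change above 0 and 1 below it, Kdr (200, 156 and 77.2). Sums were 546, 317 and 174 for fibroblasts (5 of 6, Col1a2 at 0 in shControl and Col1a1 in replicate 2). Most of this was a single gene, Pdgfra, at 539, 303 and 159. For erythroid cells (2 of 6) they were 113, 76.7 and 44.6, most of it Alas2, at 107, 70.0 and 42.2. For neurons (6 of 7) the sums were 61830, 41088 and 40265, nearly all of it Map2, at 60020, 37935 and 38518 (adjusted p = 0.12 by limma). Of these 6 markers, 3 had a log2 fold change above 0 and 3 below it, the highest being Tubb3 (104, 198 and 346). The part of these cell types in the results below was not tested. In bulk RNA, fewer cells of a type and less RNA per cell cannot be told apart.

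Summed over its subunits, the proteasome's transcripts were close to the control level in both shPHF2 libraries. The 31 structural subunits together had 125492, 121091 and 126583 normalised reads. They took 0.383% of the reads in genes in shControl (Wilson 95% interval 0.381 to 0.385), 0.391% in replicate 1 (0.389 to 0.393) and 0.399% in replicate 2 (0.397 to 0.402). These intervals cover counting error only.

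Of the 36 genes, 35 reached the minimum mean of 10 and were tested. None rose and 2 fell, and both of these lie outside the 31 structural subunits: the assembly chaperone gene Psmd9 and the recombination gene Psmc3ip. Over all 14148 genes tested, 14.3% were called, 7.22% as higher and 7.11% as lower (limma, adjusted p under 0.05 after Benjamini-Hochberg). Among the 31 structural subunits, limma called 0, and edgeR and DESeq2 each called 0. By limma 2 of the 31 (Psmc6 and Psmd14) had an unadjusted p under 0.05, beside 4414 of all 14148 genes tested. Over all genes, edgeR called 7.12% higher and 8.06% lower, and DESeq2 7.66% and 7.43%. The authors' deposited table, with 8.04% of genes higher and 7.96% lower at an adjusted p under 0.05, had the same 2 members as lower.

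Few structural subunits lay far from the control in either direction. The log2 fold change of 30 of the 31 structural subunits (96.8%) was between -0.5 and 0.5, against 57.6% of all genes tested, a set that includes genes of much lower count. Their median was 0.01, beside -0.01 for all genes tested (0.10 and -0.02 with quantile normalization), and their standard deviation was 0.22, beside 0.83. For the same number, 30 of 31, the 95% interval of the log2 fold change lay wholly within -1 and 1, that is, within a 2-fold change, and this held for 47.0% of all genes. Psmd14 was the exception to both counts. Over all 35 tested members, with Psmd9 and Psmc3ip included, 91.4% had a log2 fold change between -0.5 and 0.5. The standard deviation over the 35 was 0.31. In 13 of the 31 both shPHF2 libraries lay above the control and in 12 both lay below it, shares of 41.9% and 38.7%, beside 41.4% and 41.8% of all genes tested, which together make the 83.2% with both libraries on 1 side. A p above the threshold does not show that these genes were at the control level, and the intervals give the sizes that these libraries allow.

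**Figure D1:**
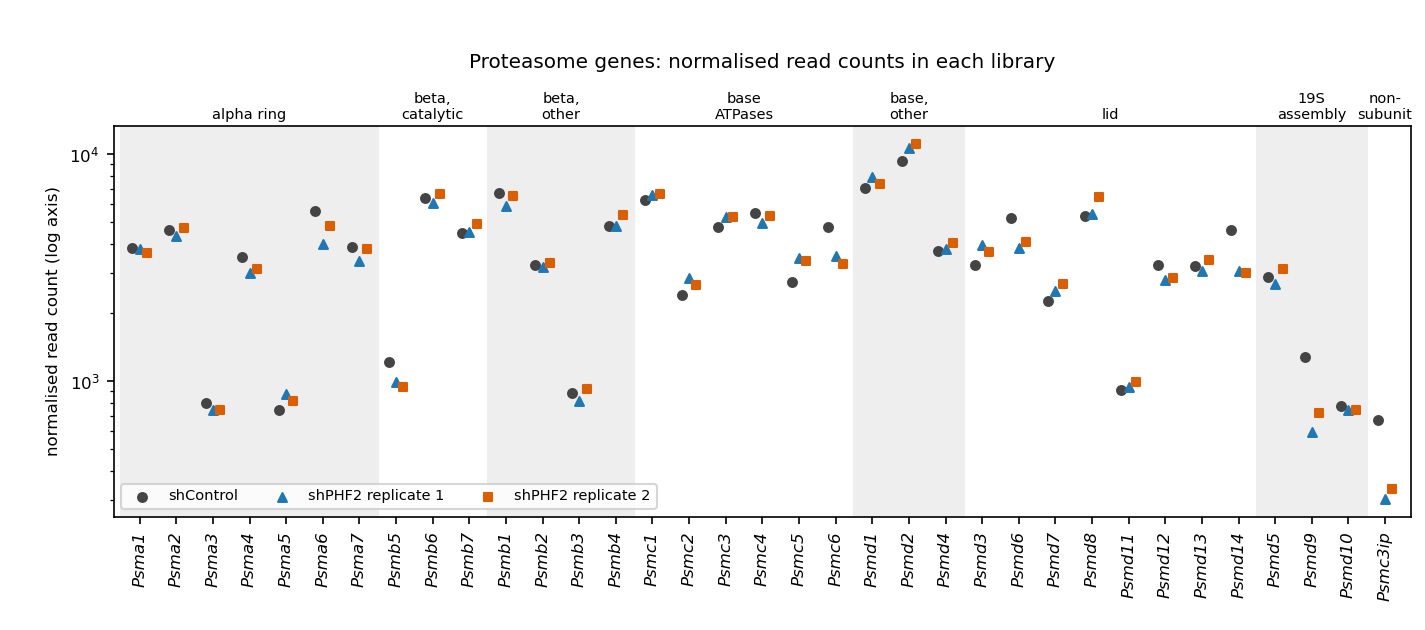
Normalised read counts (log axis) of the 35 tested genes in shControl (circles), shPHF2 replicate 1 (triangles) and shPHF2 replicate 2 (squares), grouped by role. The 3 points of most genes lie close together, and the control lies apart for Psmd9 (1270 against 595 and 720) and Psmc3ip (676 against 303 and 335).

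Psmd9 and Psmc3ip, which fell, and Psmd14 and Psmc6, the structural subunits with the lowest fold changes, are shown by the sequence before their transcription start, together with the catalytic subunit genes Psmb6, the most abundant subunit per length, and Psmb5, as genes of the same complex that were not called. The sequences are read 5′ to 3′ on the strand of the gene and cover at most 250 bases before the start, leaving out bases that lie in an annotated exon (RefSeq promoters, build GRCm38.p6). For Psmd9 the RefSeq start lies inside the gene's span in the GENCODE M21 annotation, which begins upstream at 123169413. Capitals mark matches to the antioxidant response element, the site class of NRF1 and its relative NRF2, searched as TGACNNNGC or TGAGNNNGC, and to the CCAAT box, the site of NF-Y, both on either strand. The first pair counts as 1 element, and its matches and the CCAAT boxes do not overlap in the sequences printed.
Psmd9 (chr5:123227940-123228189, plus strand): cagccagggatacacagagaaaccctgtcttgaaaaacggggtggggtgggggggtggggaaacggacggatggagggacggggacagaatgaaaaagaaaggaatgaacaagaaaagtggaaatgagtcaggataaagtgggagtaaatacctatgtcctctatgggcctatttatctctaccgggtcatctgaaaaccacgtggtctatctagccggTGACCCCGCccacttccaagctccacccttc
Psmc3ip (chr11:101095437-101095685, minus strand): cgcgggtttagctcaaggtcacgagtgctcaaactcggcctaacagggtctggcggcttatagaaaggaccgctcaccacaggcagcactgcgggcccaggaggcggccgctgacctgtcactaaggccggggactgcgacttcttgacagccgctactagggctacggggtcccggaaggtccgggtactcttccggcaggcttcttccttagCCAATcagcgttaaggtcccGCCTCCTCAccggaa
Psmd14 (chr2:61711444-61711693, plus strand): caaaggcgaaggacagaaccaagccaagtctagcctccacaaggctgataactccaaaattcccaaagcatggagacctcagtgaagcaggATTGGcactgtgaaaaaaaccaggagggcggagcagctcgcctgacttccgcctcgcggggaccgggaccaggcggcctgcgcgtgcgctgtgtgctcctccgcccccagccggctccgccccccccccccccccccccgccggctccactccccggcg
Psmc6 (chr14:45329574-45329787, plus strand): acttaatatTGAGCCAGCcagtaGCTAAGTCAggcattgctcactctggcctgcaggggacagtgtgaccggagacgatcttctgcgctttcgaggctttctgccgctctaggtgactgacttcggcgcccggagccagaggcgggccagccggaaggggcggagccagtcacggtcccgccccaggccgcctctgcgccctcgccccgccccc
Psmb6 (chr11:70525107-70525356, plus strand): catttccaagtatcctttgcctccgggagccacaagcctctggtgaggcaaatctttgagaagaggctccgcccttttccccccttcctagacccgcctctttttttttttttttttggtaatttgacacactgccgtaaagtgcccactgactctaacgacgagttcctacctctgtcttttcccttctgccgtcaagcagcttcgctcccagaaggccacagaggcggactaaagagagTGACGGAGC
Psmb5 (chr14:54618023-54618245, minus strand): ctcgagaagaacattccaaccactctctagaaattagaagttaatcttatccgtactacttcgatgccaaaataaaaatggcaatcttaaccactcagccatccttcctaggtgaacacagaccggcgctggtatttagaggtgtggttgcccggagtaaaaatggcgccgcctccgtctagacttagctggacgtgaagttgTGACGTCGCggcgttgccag
With the base before the start as position -1, Psmd9 has an element match that begins at position -31, Psmb5 at -47 and Psmb6 at -9. Psmc3ip has a CCAAT box at -36 and an element match at -16. Psmc6 has 2 element matches, at -241 and -227, and Psmd14 a CCAAT box at -159. Among the genes printed, element matches occur in both that fell and, of those not called, in Psmb5, Psmb6 and Psmc6 but not in Psmd14. RefSeq promoters were matched for 30 of the 36 genes, 32 promoters in all with the 50 bases after the start included. An element match was found in 16 of the 32 (50%), beside 27.8% of all 32851 promoters of the same length, and a CCAAT box in 13 (40.6%), beside 37.4%. The members' promoters had a median GC content of 57%, beside 52.7%. Such matches are descriptions of letters and not of bound sites.

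Psmd9, on chromosome 5 (123169413 to 123250131, plus strand, GENCODE M21), encodes the chaperone that binds an ATPase before the base is complete. It had 1270, 595 and 720 normalised reads, with 658 ± 88.0 (SD, n = 2) as the shPHF2 mean. Both shPHF2 libraries lay far below the control, at 46.9% and 56.7% of it. Their distance from the control was larger than that between them, as for 55.0% of all genes tested. The log2 fold change was -0.96 (SE 0.23, 95% interval -1.48 to -0.43; adjusted p = 0.032 by limma). Of its exonic bases, 25.5% are overlapped by the long non-coding RNA gene Gm26745 on the opposite strand, which is not analysed here, and the strand setting of the counting was not given in the sources used here. The 2 other chaperones of this class differed less. Psmd10, or gankyrin, had 778, 742 and 743 normalised reads, and Psmd5 had 2869, 2672 and 3123.

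Psmc3ip, on chromosome 11 (101091823 to 101095436, minus strand), encodes HOP2, an accessory factor of meiotic recombination. Its values were 676, 303 and 335 normalised reads, and the shPHF2 mean, 319 ± 23.0 (SD, n = 2), was 47.2% of the control. The groups did not overlap, as they did not for 83.2% of all genes tested. The log2 fold change was -1.08 (SE 0.26, 95% interval -1.69 to -0.47; adjusted p = 0.034 by limma). Exons of Mlx on the opposite strand overlap 21.2% of its exonic bases, and Mlx had 1573, 1532 and 1698 normalised reads. Both calls, of Psmd9 and of Psmc3ip, were lost in limma without the mean-variance trend, with no filter on low values and with quantile normalization, settings under which no gene of the table was called.

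**Figure D2:**
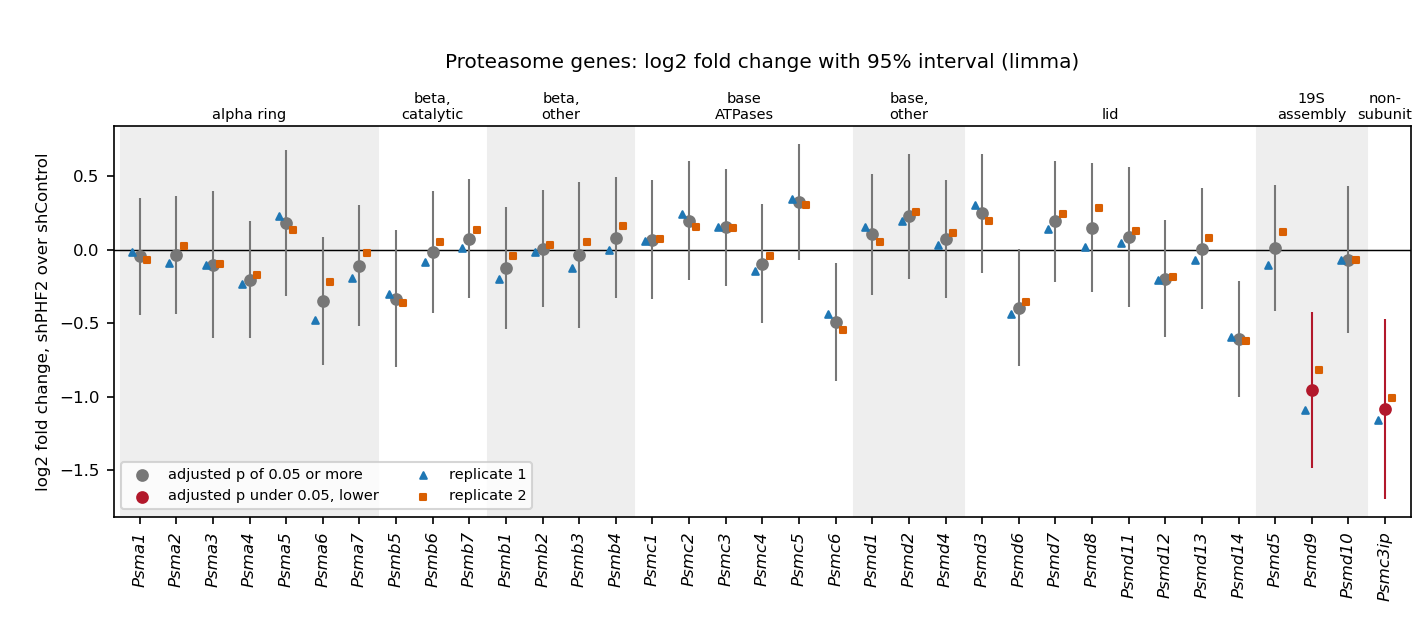
Log2 fold change of shPHF2 over shControl for the 35 tested genes, grouped by role. Large circles are limma estimates with 95% intervals, triangles and squares the replicates each against the control. Psmd9 and Psmc3ip, in red, are the 2 genes with an adjusted p under 0.05, and Psmd14 and Psmc6 are the other intervals that end below 0.

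In the core particle, 0 of the 14 structural genes were called by limma, edgeR or DESeq2, beside 14.3%, 15.2% and 15.1% of all genes. At an unadjusted p under 0.05 by limma there were 0, beside 4414 of all 14148 genes tested. The median log2 fold change of the 14, -0.04, was made of -0.10 for replicate 1 alone and -0.00 for replicate 2. It was 0.05 with quantile normalization and 0.02 with scaling to reads in genes, so its sign depends on the scaling. The values ran from -0.35 (Psma6) to 0.18 (Psma5), and the 95% intervals from -0.80 to 0.68.

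The alpha subunits build the outer rings and the gate. Psma6 had 5607, 4032 and 4803 normalised reads (log2 fold change -0.35, 95% interval -0.78 to 0.08; adjusted p = 0.25 by limma). Psma4 had 3501, 2979 and 3099. Both genes lay lower in both shPHF2 libraries, for Psma6 with the libraries far apart from each other. Psma5 was the only alpha gene above the control in both, with 746, 874 and 819 normalised reads (limma, adjusted p = 0.61). The other 4 differed from the control by less than 0.12 on the log2 scale, with fold changes of -0.05 for Psma1, -0.04 for Psma2, -0.10 for Psma3 and -0.11 for Psma7.

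The catalytic beta subunits cut the substrate chain. Psmb5, which carries the chymotrypsin-like site that bortezomib blocks, had 1217, 989 and 944 normalised reads, with 966 ± 31.6 (SD, n = 2) as the shPHF2 mean. The shPHF2 libraries lay below the control by more than their own distance, and 55.0% of all genes tested had such a gap in either direction. The log2 fold change of -0.33 did not pass the test (95% interval -0.80 to 0.13; limma, adjusted p = 0.30). Psmb6, with the caspase-like site, had 6430, 6063 and 6671, with the control between the shPHF2 libraries. Psmb7, with the trypsin-like site, had 4490, 4524 and 4929. The log2 fold changes of Psmb6 and Psmb7 were -0.02 and 0.07. Of the 4 beta genes without an active site, Psmb1 had -0.12, Psmb2 0.01, Psmb3 -0.04 and Psmb4 0.08. Psmb11 had 4, 4 and 0 reads in the 3 libraries and was not tested. The core genes that interferon induces in place of the catalytic ones did not pass the test. They were higher in both shPHF2 libraries than in the control, as were 41.4% of all genes tested. Psmb8 had 8.97, 11.7 and 71.1 normalised reads, Psmb9 had 1.99, 14.2 and 32.6 and Psmb10 had 293, 445 and 576 (limma, adjusted p = 0.36, 0.10 and 0.10).

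In the regulatory particle, limma called none of the 17 structural genes, beside 14.3% of all genes. At an unadjusted p under 0.05 by limma were 2 of the 17, beside 4414 of all 14148 genes tested. The median log2 fold change of the 17 was 0.09. Over all 21 Psmc and Psmd genes it was 0.07, made of 0.02 for replicate 1 alone and 0.08 for replicate 2, and it was -0.01 after correcting for GC content and length, so this sign depends on the processing too. The spread was wider than in the core, with a standard deviation of 0.27 over the 17 genes and of 0.15 over the 14 core genes. Whether the particles differ was not tested, since the genes of 1 complex are not replicates of a condition.

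The ATPases of the base lay on both sides of the control. Psmc5 was the highest, with 2739, 3471 and 3382 normalised reads (log2 fold change 0.32, 95% interval -0.07 to 0.72; adjusted p = 0.24 by limma). Psmc6 was the lowest, with 4786, 3539 and 3270 (log2 fold change -0.49, 95% interval -0.89 to -0.09; adjusted p = 0.098 by limma). The distance of both genes from the control was larger than the distance between the shPHF2 libraries, as for 55.0% of all genes tested. As Psmc5 and Psmc6 were named for being the highest and lowest ATPase genes, their opposite sides are not a result about the ring. Psmc1, Psmc2 and Psmc3 had log2 fold changes of 0.07, 0.20 and 0.15 with both libraries above the control, and Psmc4 had -0.10 with both below. Exons of Slc39a13 on the opposite strand, which rose by 0.96 on the log2 scale (limma, adjusted p = 0.028), overlap 8.25% of the exonic bases of Psmc3. Larger overlaps were those of Psmb7 with Nek6 (11.8%) and of Psmd13 with Sirt3 (10.1%), also on the opposite strand. Psmb5 overlaps Mir686 on the same strand (12.1%), and Psma4, Psma5, Psmd1 and Psmd3 had smaller overlaps.

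The 3 non-ATPase subunits of the base, which hold ubiquitin and its carriers, were above the control in both shPHF2 libraries, as were 41.4% of all genes tested. Psmd2 had 9288, 10644 and 11091 normalised reads (log2 fold change 0.23; limma, adjusted p = 0.45). Psmd1 had 7102, 7911 and 7368, and the ubiquitin receptor gene Psmd4 had 3753, 3830 and 4064. None of the 3 passed the test.

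The lid held the structural gene with the largest difference. Psmd14, on chromosome 2 (61711694 to 61800376, plus strand), encodes the metalloprotease that cuts the ubiquitin chain off the substrate. It had 4614, 3062 and 2992 normalised reads, and the shPHF2 mean, 3027 ± 49.3 (SD, n = 2), was 65.6% of the control. Both shPHF2 libraries were low, and replicate 2 differed from replicate 1 by -0.03 on the log2 scale. The log2 fold change of -0.61 (SE 0.17), as a ratio 0.656 with a 95% interval of 0.499 to 0.863, did not pass the test (limma, adjusted p = 0.052; 0.060 in the authors' deposited table), and it passed with TMM scaling (adjusted p = 0.041). Psmd6 had 5219, 3855 and 4086, or -0.40 on the log2 scale (limma, adjusted p = 0.16). At the other end of the lid, Psmd3 had 3228, 3976 and 3686, or 0.25 (limma, adjusted p = 0.38). The remaining 5 lid genes lay between these, with -0.20 for Psmd12, 0.01 for Psmd13, 0.09 for Psmd11, 0.15 for Psmd8 and 0.19 for Psmd7.

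The shPHF2 libraries were also close to each other. The median absolute difference between replicate 2 and replicate 1, which does not use the control, was 0.09 on the log2 scale over the 31 structural subunits and 0.21 over all genes tested. The differences ran from -0.11 (Psmc6) to 0.26 (Psmd8) over the structural genes. They leaned one way in the core, where the median was 0.12 and the gene with the largest was Psma6 at 0.25. In the 17 regulatory subunits the median was 0.02.

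Although the proteins form 1 complex, the transcripts of the subunits differed widely in level per length. Per kb of the longest principal transcript of the annotation, Psmb6 was the highest in every library, with 8058, 7597 and 8359 normalised reads per kb. The lowest core gene was Psma3, with 281, 261 and 263 per kb, and the lowest regulatory subunit gene was Psmd11, with 319, 329 and 348 (559 in shControl per kb of its shorter principal transcript). The median over the 31 genes was 2905, 2637 and 2660 per kb. The order was much the same in the 3 libraries. Of the 31 ranks, Psmb6, Psmd1, Psma5, Psmd11 and Psma3 kept theirs in both shPHF2 libraries, and the largest move was that of Psmc6, from rank 19 in shControl to 22 and 26.

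The genes with the lowest levels per length were among those with near-identical copies elsewhere in the genome. Of the 31 structural subunits, 8 had a transcript of another locus that matched theirs over at least 100 bases at 95% identity or more. Psma5 matched Gm8394 at 98.6% over 952 bases, Psmb5 matched Gm3375 at 98.9% over 796 bases, and Psmd11 matched A730017L22Rik at 97.9% over 1501 bases. Psma3 and Psmb3 matched other loci at 96.5% over 772 bases and 97.1% over 618 bases. These 5 genes were the lowest 5 of the 31 per kb in both shPHF2 libraries, but not in shControl. There Psmc2, which has no copy, stood at 1342 per kb, below Psmb5 at 1354. Psma4, Psmc1 and Psmd2 had copies too, at 96.8%, 95.6% and 96.4%, and their levels were 3005, 3959 and 3137 per kb in shControl. The median in shControl was 1257 per kb over the 8 genes with a copy and 2994 over the 23 without, where the lowest was 1342. The treatment of reads that fit several loci was not given in the sources used here, and the part of the copies in these levels was not tested. The values of the 8 genes are therefore uncertain as levels.

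**Figure D3:**
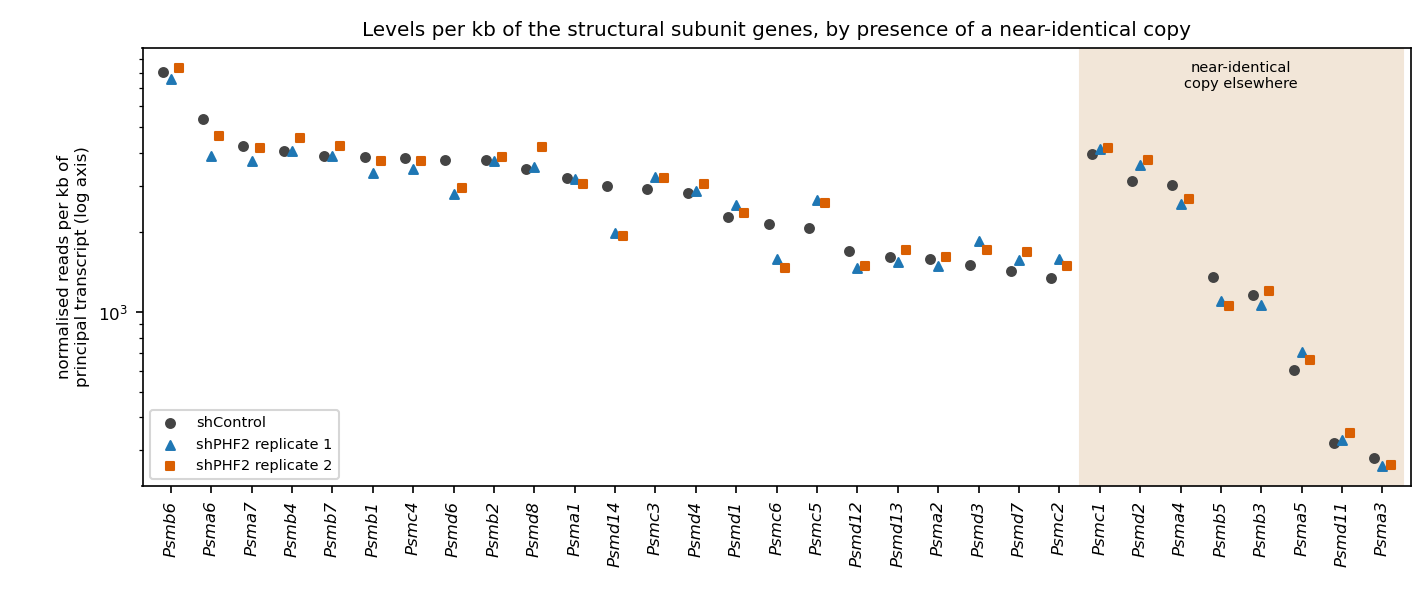
Normalised reads per kb of principal transcript (log axis) of the 31 structural subunit genes in the 3 libraries, sorted by level within those without and those with a near-identical copy at another locus (shaded). Psma3, Psmd11 and Psma5 are lowest in every library, and Psmb6 is highest.

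Genes around the proteasome were looked up from lists by role. Among 6 further subunits and bound enzymes of the regulatory particle, 2 fell and none rose, beside the 7.11% called lower over all genes. The subunit genes Adrm1, a ubiquitin receptor, and Shfm1, which encodes the small lid subunit DSS1, had log2 fold changes of 0.01 and -0.02. The deubiquitinase gene Uchl5, whose product docks on ADRM1, had 1130, 662 and 515 normalised reads (-0.95; adjusted p = 0.040 by limma). The thioredoxin-like gene Txnl1 had 5597, 3265 and 3599 (-0.71; limma, adjusted p = 0.036). Both calls were lost with scaling to reads in genes (adjusted p = 0.064 and 0.053) and with values corrected for GC content and length (0.060 and 0.059), besides the 3 settings that called no gene. The other deubiquitinase gene, Usp14, stood at -0.60 (limma, adjusted p = 0.062) and was called lower with TMM scaling, and the ubiquitin ligase gene Ube3c, the highest of the list, at 0.41 (limma, adjusted p = 0.15).

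Besides Psmd5, Psmd9 and Psmd10, of which Psmd9 fell, 7 genes were listed with particle assembly: Psmg1 to Psmg4, Pomp, Akirin2 and AI314180. Of these 7, 0 were called by limma, edgeR or DESeq2, beside 14.3%, 15.2% and 15.1% of all genes. By limma 3 had an unadjusted p under 0.05, beside 4414 of all 14148 genes tested. The median log2 fold change of the 7 was -0.46. In both shPHF2 libraries 6 of the 7 lay below 0, as did 41.8% of all genes tested. Psmg1 to Psmg4, which pair up to build the alpha ring, had fold changes of -0.46, -0.64, -0.82 and -0.61, and Psmg3 had 798, 414 and 494 normalised reads (limma, adjusted p = 0.067). Pomp, which guides the beta ring, had 3388, 3241 and 3762 (0.04). The groups did not overlap for any of the 4 Psmg genes, as they did not for 83.2% of all genes tested.

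The activators that can replace the regulatory particle differed among themselves. None of the 6 genes of that list was called by limma, edgeR or DESeq2, beside 14.3%, 15.2% and 15.1% of all genes. By limma 1 had an unadjusted p under 0.05, beside 4414 of all 14148 genes tested. Psme1 and Psme2, which encode the interferon-responsive activator PA28, had 525, 844 and 780 and 105, 184 and 171 normalised reads (limma, adjusted p = 0.10 and 0.21). The nuclear activator gene Psme3 had the lowest log2 fold change of the list, -0.34, and Psme4 and the inhibitor gene Psmf1 had 0.01 and -0.02.

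Of 14 regulators of proteasome genes, 2 rose and 0 fell, beside 7.22% called higher and 7.11% lower over all genes. Nfe2l1 itself, on chromosome 11 (96817414 to 96829968, minus strand), had 6970, 14694 and 12802 normalised reads, and the shPHF2 mean, 13748 ± 1338 (SD, n = 2), was 197% of the control. Both shPHF2 libraries were far above the control (log2 fold change 0.98, SE 0.19; adjusted p = 0.0185 by limma). Syvn1, the ligase that marks NRF1 at the endoplasmic reticulum, rose, with 966, 1627 and 1550 (0.72; limma, adjusted p = 0.043), a call lost with DESeq2 (0.054) and with values corrected for GC content and length (0.11), where 4.36% of all genes were called higher. Ddi2, the protease that activates NRF1, had 757, 664 and 534 (limma, adjusted p = 0.39), and its glycanase gene Ngly1 had 1354, 1529 and 1808 (limma, adjusted p = 0.35). The NF-Y subunit gene Nfya was the lowest of the list, with 1611, 1050 and 1061 (-0.61; limma, adjusted p = 0.073), and it was called lower with values corrected for GC content and length (-0.73; adjusted p = 0.046), as were 7.11% of all genes there. Limma called 0 of the 31 structural subunit genes higher, beside 7.22% of all genes. A link between the Nfe2l1 transcript and the subunit transcripts was not tested, and NRF1 activity was not measured.

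The CCT chaperonin, another ring complex of the cytosol that folds actin and tubulin, is given for scale. All 8 of its genes lay below the control in both shPHF2 libraries, as did 41.8% of all genes tested. The log2 fold changes of the 8 genes ran from -0.79 to -0.53 with a median of -0.59, and this sign held under every scaling. Limma called 1 of them, Cct6a (12747, 7194 and 7578 normalised reads; adjusted p = 0.028), edgeR 2 and DESeq2 4, beside 7.11%, 8.06% and 7.43% of all genes called lower. Of the 31 structural proteasome genes, only Psmd14 had a log2 fold change within that range. The difference between the complexes was not tested.

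**Figure D4:**
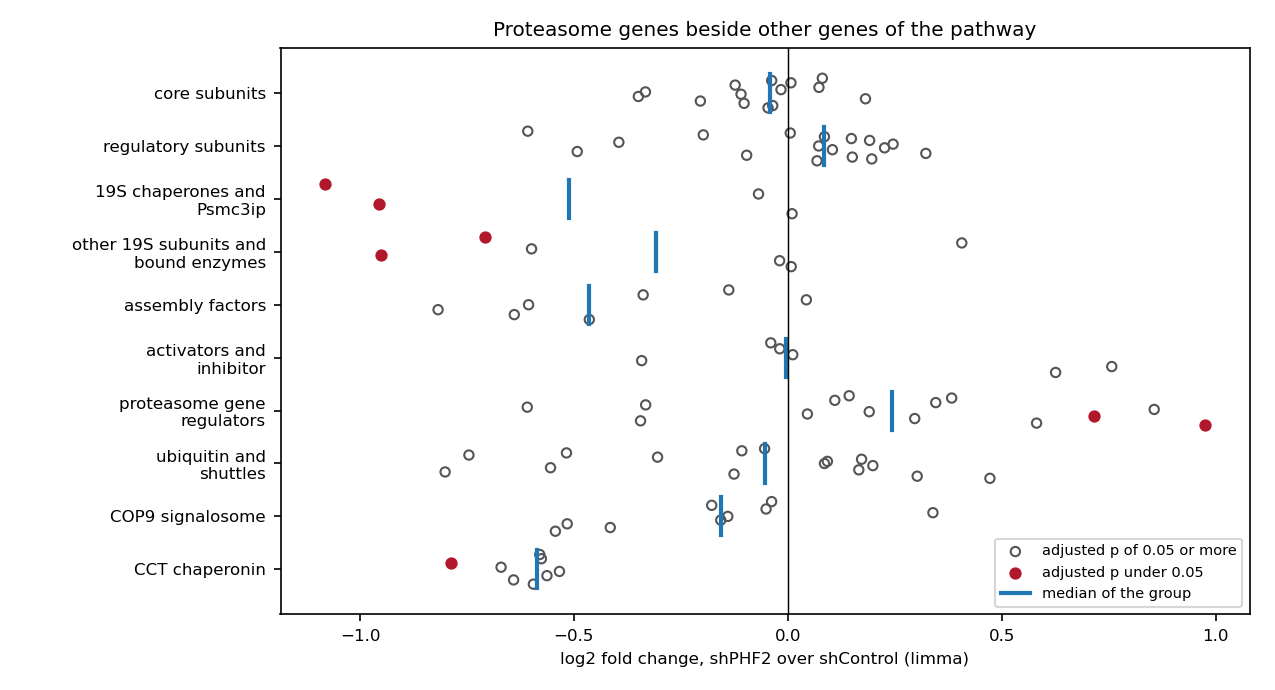
Log2 fold change of shPHF2 over shControl (limma) of each tested gene, by group, with filled circles for an adjusted p under 0.05 and a bar at the group's median. The core and regulatory subunits centre near 0, at -0.04 and 0.09, the 8 CCT genes lie between -0.79 and -0.53, and Nfe2l1 is the rightmost filled circle at 0.98.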

How the data were processed

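The deposited values are a signal per gene and library: read counts that the authors divided by a DESeq2 size factor, per the file headers, the submitters' processing notes and the step between values. Libraries were stranded, per the labels' protocols. HISAT2, HTSeq, DESeq2 and build mm10 were used, per the submitters' processing notes. Versions, gene annotation and strand setting: not given in the sources used here. All values (100%, within 0.001) were whole multiples of 1 step per column, so whole reads were recovered for the count tests. Deposited beside them are the authors' log2 fold change, Wald score, p-value and adjusted p-value, the last empty for 4280 genes. Another 4 rows name no gene and were left out of all tests. In the order shControl, shPHF2 replicates 1 and 2, they held 42.7%, 44.0% and 38.7% of reads as no feature, 17.0%, 15.9% and 20.5% as low alignment quality, 1.18%, 1.22% and 1.78% as unaligned and 0.461%, 0.430% and 0.434% as ambiguous.

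The main test was that of limma 3.58.1 (R 4.3.3) on log2(value + 1) for the 14148 genes whose mean reached 10, two-sided, with Benjamini-Hochberg adjustment over them all. On this scale the fold changes of low genes are understated. The fit has 1 residual degree of freedom, from the shPHF2 libraries, and 6.94 prior ones, and it takes the control to vary as they do. edgeR 4.0.16 and DESeq2 1.42.0 were run on the recovered reads. The code was tested on simulated counts. Coordinates, transcript lengths and GC content are from GENCODE M21 (GRCm38), and copies were searched with blastn 2.17.0. Lists of related genes gave no value where a symbol was not in the table. Named are the members past the test, the catalytic subunits, the ATPases, Psmd14, the highest and lowest of each particle, and the called, highest and lowest genes of each list; other members are named to account for all. The members, lists and tests were chosen with earlier results of these data known.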

Additional observations from a re-analysis of the deposited data

How the results depend on the processing

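Each member kept its direction and its side of the threshold with pseudocounts of 0.5 and 5, a minimum mean of 50, edgeR and DESeq2. Limma called no gene of the table with no filter on low values, without the trend and with quantile normalization, so the number of regulatory members called lower went from 2 to 0 there, and Phf2 had log2 fold changes of -1.63, -1.63 and -1.59 with adjusted p of 0.14, 0.16 and 0.099; unadjusted, 3893, 3300 and 3700 genes had a p under 0.05, and 4, 3 and 4 members. With TMM factors 3 members were lower, the third being Psmd14. The median log2 fold change of the core members was 0.054 with quantile normalization. That of the regulatory members was 0.11 with quantile normalization, 0.13 with scaling to reads in genes and -0.0078 after correction for GC content and length, where 617 genes in all were higher and 1006 lower (1021 and 1006 as reported). The cause was not tested. The median of all genes stayed between -0.07 and 0.06. Each shPHF2 library alone, with no test, gave medians of -0.10 to -0.00 for the core and 0.018 to 0.080 for the regulatory members. No paired analysis was possible because the control is a single library without a replicate number. With 1 control library, the median standard error of a member was 0.18 on the log2 scale, and near-identical copies limit what the counts of 8 subunits mean.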

Other observations

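Ubiquitin genes and the factors that activate ubiquitin or carry ubiquitylated proteins to the proteasome lay on both sides of the control. Of 15 tested, limma called 0, beside 14.3% of all genes. At an unadjusted p under 0.05 by limma were 4 of the 15, beside 4414 of all 14148 genes tested. In turn, edgeR and DESeq2 each called 1 lower, Ubqln2, beside 8.06% and 7.43% of all genes. The polyubiquitin gene Ubb had 740, 985 and 1069 normalised reads for shControl, replicate 1 and replicate 2, both libraries above the control. Rps27a, which encodes ubiquitin fused to a ribosomal protein, had 530, 326 and 283, both below it, the lowest log2 fold change of the list at -0.80 (limma, adjusted p = 0.092). The shuttle gene Ubqln2 had 3145, 2129 and 1652 (-0.75; limma, adjusted p = 0.051). The shuttle gene Rad23b, at 14518, 13621 and 14352, differed by -0.05.

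The COP9 signalosome, which shares the architecture of the proteasome lid, had a median log2 fold change of -0.16 over 9 genes. None of the 9 was called by limma, edgeR or DESeq2, beside 14.3%, 15.2% and 15.1% of all genes. By limma 3 had an unadjusted p under 0.05, beside 4414 of all 14148 genes tested. Gps1 was the lowest, with 1505, 1022 and 1043 normalised reads (-0.54; limma, adjusted p = 0.10). Cops6 was the highest, with 837, 1052 and 1067 (0.34; limma, adjusted p = 0.30).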
